A study of Homo sapiens with 11 samples.

Results

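The replication-dependent histone genes of PC-3 tumours are described here. They were taken as every gene whose symbol in the deposited gene tables opens with HIST1H, HIST2H, HIST3H or HIST4H, which gave 73 of the 25590 genes listed. The symbol names the genomic cluster first and the histone class second. By class there were 6 genes for the linker histone H1, 18 for H2A, 20 for H2B, 14 for H3 and 15 for H4, and by cluster 56 belonged to HIST1, 13 to HIST2, 3 to HIST3 and 1 to HIST4. The rule goes by symbol and also took in pseudogenes. HIST1H2APS1 and HIST2H2BA are annotated as pseudogenes, and HIST2H2BC has the current symbol H2BC20P, a form used for pseudogenes.

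PC-3 is an established human prostate carcinoma cell line. Its cells, in matrigel, were grown under the skin of young male athymic nude mice (Crl:NU-Foxn1nu), which lack T cells but keep other host cells such as macrophages, so that each tumour was a mixture of human and mouse cells. The mice received A2M* (the transformed form of alpha2-macroglobulin, a pan-proteinase inhibitor of blood; labelled A2M) by injection into the peritoneum, or PBS as control. RNA of 6 A2M tumours (PC3_tumor_128 to PC3_tumor_132 and PC3_tumor_112) and 5 PBS tumours (PC3_tumor_123 to PC3_tumor_127) was sequenced, with 1 library per tumour. All tumours came from the same cell line, and p-values measure only the spread between these tumours, since the labels do not tie a tumour to an animal.

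Histones are the proteins around which DNA is wound. H2A, H2B, H3 and H4 form the core of the nucleosome, and H1 binds the DNA between the cores. The replication-dependent genes are made mainly in S phase, when new DNA has to be packed. Their mRNAs differ from other mRNAs in that they usually carry no poly(A) tail but end in a short stem-loop, which is bound by the protein SLBP. Some of these genes can also give longer mRNAs with a poly(A) tail. The library kit picks RNA by its poly(A) tail, so all levels below are levels of the histone RNA that this kit captured, which may be a small portion of what the cells held.

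The stem-loop is shown first because it is what sets these mRNAs apart. It was searched in the GRCh37 genome within 150 bases after the stop codon of the 65 members that had a position and a coding sequence in the annotation, as a perfectly paired stem of 6 bases opening with GG around a loop of 4 bases opening with T. It was found in 63 of the 65, between 23 and 68 bases after the stop codon with a median of 36. HIST1H2AG and HIST1H2AK had no perfect match to this pattern. The forms most often found are printed here with the paired stem in capitals and the loop in lower case.
H1, H2A, H2B and H3 genes, 38 members: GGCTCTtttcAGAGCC
H1, H2A, H2B and H3 genes, 9 members: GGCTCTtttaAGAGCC
H4 genes, 8 members: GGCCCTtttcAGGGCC
H4 genes, 4 members: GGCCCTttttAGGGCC
The remaining 4 members had a form of their own each. A single base pair of the stem told the classes apart: the stem opening GGCTCT was found in all 50 members of H1, H2A, H2B and H3 that had a match, and the stem opening GGCCCT in all 13 members of H4.

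Few of the 73 genes made up most of the signal. Of them 11 had no count in any tumour, 21 others never had more than 10 counts, and 39 had at least 3 counts in every tumour, the smallest amount taken as shown here. A filter on low counts (filterByExpr of edgeR) left 35 members for the test of the groups. Totals per tumour were between 16958533 and 35874381 counts, so that 3 counts equalled 0.0836 to 0.177 counts per 1e+06 (RPM). The members together took 0.0261% to 0.0380% of the counts of a tumour.

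The highest was HIST1H2BK, an H2B gene at chr6:27114140-27114634 on the minus strand (GRCh37, GENCODE), with a mean of 139 RPKM (counts per 1e+06 counts and per 1e+03 bases of exon, the scale used here to compare levels between genes). It was followed by the H2A gene HIST1H2AC (chr6, 26124373 to 26139344, plus strand) at 73.8 RPKM and the linker histone gene HIST1H1C (chr6:26055968-26056698, minus strand) at 53.9 RPKM. The H2B genes HIST2H2BE (chr1:149856009-149858232, minus strand) and HIST1H2BD (chr6:26158350-26171577, plus strand) came next with 17.9 and 16.6 RPKM, and then the highest H4 gene, HIST1H4H (chr6:26277837-26285866, minus strand), with 13.3 RPKM. The highest H3 gene, HIST1H3E, reached 4.21 RPKM. The means of the 39 members with at least 3 counts in every tumour spread from 0.391 RPKM (HIST3H3) to the 139 RPKM of HIST1H2BK, as the plot of levels per exon length shows.

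**Figure D1:**
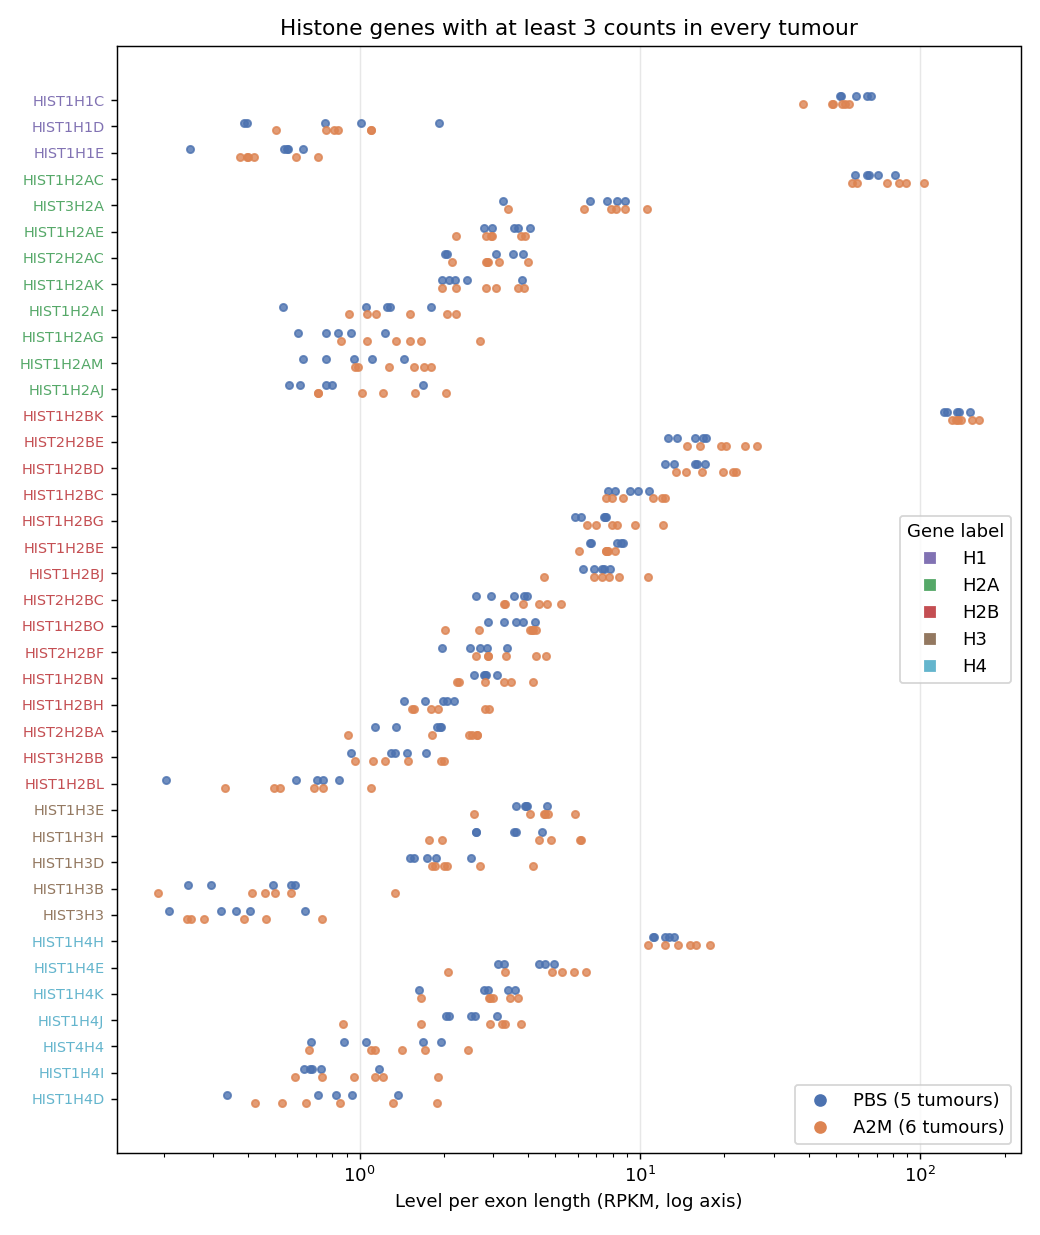
RPKM (x axis, log scale) of the 39 histone genes with at least 3 counts in every tumour, sorted within each class by mean level, with 1 point per tumour in blue for PBS and orange for A2M. HIST1H2BK lies above all others at 122 to 163 RPKM, and the points of both groups overlap for every one of the 35 genes that were tested.

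On the scale of counts (CPM, counts per 1e+06 counts after TMM normalization), HIST1H2BK, HIST1H2AC, HIST2H2BE, HIST1H1C and HIST1H2BD were the 5 highest members in each of the 11 tumours. Together they held 80.6% to 83.4% of the summed CPM of all members, with a mean over tumours of 82.0%. Summed as RPKM, which removes the effect of exon length, the 5 highest held 72.3%. HIST1H2BK was first in all 11 tumours and alone held 35.9% to 41.65% of the summed CPM. Second place was not fixed. It was held by HIST1H1C in the PBS tumours PC3_tumor_123, PC3_tumor_124, PC3_tumor_125 and PC3_tumor_126 and the A2M tumours PC3_tumor_130 and PC3_tumor_112, by HIST1H2AC in PBS tumour PC3_tumor_127 and A2M tumour PC3_tumor_129, and by HIST2H2BE in the A2M tumours PC3_tumor_128, PC3_tumor_131 and PC3_tumor_132.

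The classes were captured very unequally, although a nucleosome holds its core histones in equal amounts. H2B genes held a median of 64.2% of the summed CPM of the members over the 11 tumours, H2A genes 16.2% and H1 genes 13.5%. H4 genes held 3.12% and H3 genes 2.27%. By cluster, HIST1 held a median of 83.3%, HIST2 15.3%, HIST3 1.49% and the single HIST4 gene 0.169%. The genes of H3 and H4 were not absent, since 5 of 14 and 7 of 15 had at least 3 counts in every tumour, but their levels were low. Their sums hold nothing from HIST2H3A, HIST2H3C, HIST2H4A and HIST2H4B, which had no count and whose coding sequences are identical in pairs.

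The exon models of the members were compared with their coding sequences. For 57 members both the exon length used for the RPKM and a coding length were known, and 5 of them had over 300 noncoding exon bases, that is an exon length well beyond that of the coding sequence. The exon length was worked out from the deposited RPM and RPKM. The 11 members without a count therefore had none and are not among the 57. The exon lengths come from the authors' RefSeq models and the coding lengths from GENCODE, and the annotations do not match for every gene: HIST1H2BK, with 839 exon bases in the authors' model, ends 5 bases past its stem-loop in GENCODE, HIST1H2AC, with 546 exon bases, reaches 14432 bases past its own there, and for HIST1H2BN the exon length is shorter than the GENCODE coding length. The counts follow the authors' models, and which RNA ends were present in these tumours was not tested. The 5 members with over 300 noncoding bases were HIST2H2BE with 1842, HIST2H2BF with 662, HIST1H3D with 510, HIST1H2BD with 480 and HIST1H2BK with 458. Their mean levels ranged from 2.16 to 139 RPKM with a median of 16.6. The 52 members with shorter models, which leave out those without a count, ranged from 0.00799 to 73.8 RPKM with a median of 0.883. Among the 5 highest members by CPM, 3 had such a long model, while HIST1H2AC had 153 and HIST1H1C 90 noncoding bases in the authors' models. These are descriptions across genes, which are not independent replicates.

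The 11 members without a count were HIST1H1A, HIST1H2AA, HIST1H2APS1, HIST1H2BA, HIST1H4F, HIST2H2AA3, HIST2H2AA4, HIST2H3A, HIST2H3C, HIST2H4A and HIST2H4B. HIST1H2APS1 is annotated as a pseudogene. HIST1H2AA, HIST1H2BA and HIST1H1A are known as genes of testis or of few other tissues. HIST2H3A and HIST2H3C have identical coding sequences, as do HIST2H4A and HIST2H4B, so that a read within them cannot be assigned to 1 gene. Of the 8 genes without a count that had a coding sequence in the annotation, 4 shared over 90% of their stretches of 50 coding bases with another member. Only the 65 members with a coding sequence were compared with each other. HIST2H2AA3 had none, so HIST2H2AA4 was not compared with it, and sharing may be understated. HIST1H4J and HIST1H4K also have identical coding sequences and were counted nonetheless, with 8 to 38 and 15 to 43 counts per tumour, so their separate values are uncertain. The variant gene H3F3A was likewise listed at 0 in every tumour while H3F3B, which encodes the same H3.3 protein, had a mean of 327 RPKM. How reads that fit several genes were counted is not given in the sources used here, and its part in these zeros was not tested. In 34 of the 65 members with a coding sequence no stretch of 50 bases was shared with another of these 65.

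H2A and H2B genes often lie head to head around a shared promoter. Among the 67 members with a position, 10 such pairs were found, with 303 to 381 bases between the 2 coding starts. HIST1H2BF, HIST1H2BG, HIST2H2AA3 and HIST2H2BC had no position, so any pair that holds them was not searched. Neighbours of a pair were far from equal. HIST1H2BK stood at a mean of 139 RPKM beside 0.153 RPKM for its neighbour HIST1H2AH, which had 0 to 5 counts per tumour. HIST1H2AC was 5.14 to 10.6 times as high as HIST1H2BC, HIST2H2BE 3.28 to 7.78 times as high as HIST2H2AC, HIST1H2BJ 3.38 to 12.1 times as high as HIST1H2AG and HIST3H2A 3.01 to 6.57 times as high as HIST3H2BB, each in all 11 tumours. HIST1H2BO exceeded HIST1H2AM by 1.29 to 5.21 times. HIST1H2BN and HIST1H2AK were close to each other, with a ratio of 0.728 to 1.77 and HIST1H2BN higher in 7 of 11 tumours. HIST1H2AI exceeded HIST1H2BL in 9 of 11 tumours, with a ratio of 0.724 to 6.18 at low counts, and HIST1H2AJ, at a mean of 1.06 RPKM, exceeded HIST1H2BM, at 0.101 RPKM, in all 11. The higher gene was the H2B gene in 5 of the 9 pairs with counts (HIST1H2BK, HIST2H2BE, HIST1H2BJ, HIST1H2BO, HIST1H2BN). In the others it was the H2A gene, so that among the pairs found the direction did not follow the class. Pairs that were not searched could change this count.

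**Figure D2:**
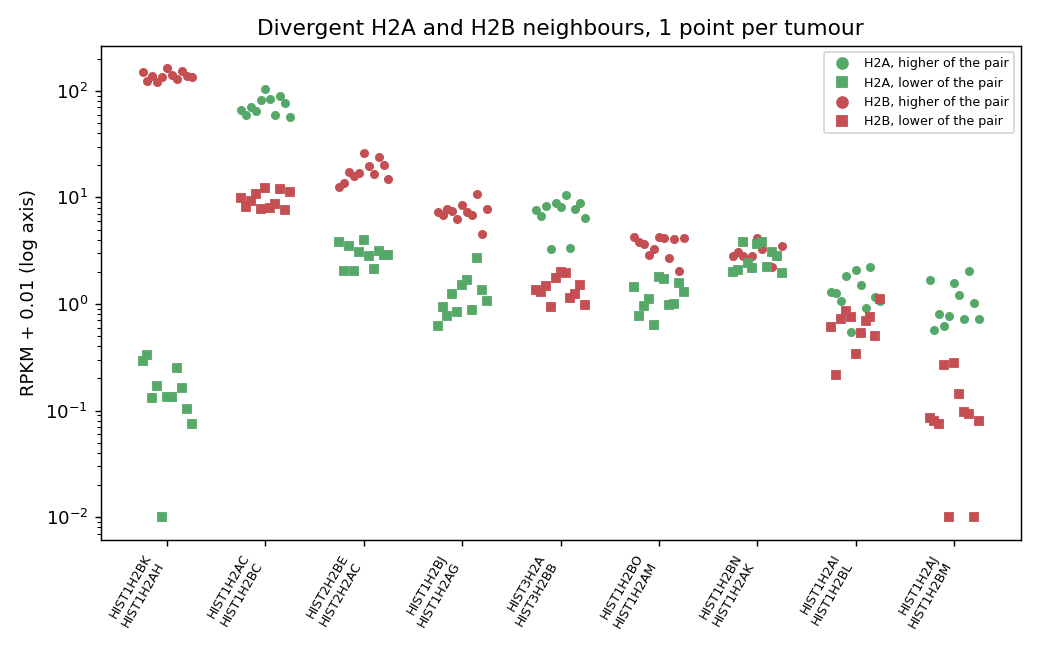
Level as RPKM + 0.01 (y axis, log scale) of the 9 divergent H2A and H2B pairs with counts, 1 point per tumour in the order PC3_tumor_123 to PC3_tumor_127, PC3_tumor_128 to PC3_tumor_132 and PC3_tumor_112, with circles for the gene of the higher mean and squares for its neighbour. In the pair of HIST1H2BK and HIST1H2AH the points lie farthest apart, and those of HIST1H2BN and HIST1H2AK overlap.

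Promoters of the 5 members with the most counts are shown because these genes lead the family while sharing short motifs with many low members. The windows give the 120 bases before the start, from RefSeq (GRCh38.p14 table) and placed on GRCh37 by exact match. For HIST1H2AC the GENCODE gene begins at 26124373, within the window printed, so the last bases shown lie inside the GENCODE gene. Capitals mark the octamer ATTTGCAT, which is bound by POU2F1 (OCT1), and the TATA box TATAAA, and in HIST1H1C the H1 box AAACACA.
HIST1H2BK, chr6:27114638-27114757, minus strand: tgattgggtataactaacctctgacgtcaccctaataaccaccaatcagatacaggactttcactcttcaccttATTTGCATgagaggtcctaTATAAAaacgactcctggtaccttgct
HIST2H2BE, chr1:149858233-149858352, minus strand: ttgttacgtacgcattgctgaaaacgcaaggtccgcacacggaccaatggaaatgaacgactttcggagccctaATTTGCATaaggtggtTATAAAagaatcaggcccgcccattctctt
HIST1H2BD, chr6:26158229-26158348, plus strand: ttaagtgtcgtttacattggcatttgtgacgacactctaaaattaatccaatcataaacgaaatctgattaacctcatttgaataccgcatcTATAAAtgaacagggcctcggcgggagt
HIST1H2AC, chr6:26124280-26124399, plus strand: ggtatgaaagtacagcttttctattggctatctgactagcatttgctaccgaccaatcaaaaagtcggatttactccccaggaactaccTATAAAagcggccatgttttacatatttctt
HIST1H1C, chr6:26056699-26056818, minus strand: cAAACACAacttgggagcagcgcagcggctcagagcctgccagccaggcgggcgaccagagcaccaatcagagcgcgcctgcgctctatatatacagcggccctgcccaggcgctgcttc

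Over the windows from 250 bases before to 50 after the start, on both strands, the octamer was found in 14 of 18 H2B genes (77.8%) and 11 of 16 H2A genes (68.75%), in 1 of 12 H3 genes and in no H1 or H4 gene, against 2.19% of 27305 RefSeq genes. HIST1H2BD had no octamer, and HIST1H2AC had one outside the 120 bases shown. The TATA box was found in 50% to 83.3% of a class, against 14.0% of all genes. All H1, H2A, H2B and H3 genes with such a window had a CCAAT box (letters CCAAT), but only 3 of 13 H4 genes, against 39.7% of all genes. The H1 box was found in 6 of 6 H1 genes, 1 of 16 H2A genes and 2 of 12 H3 genes, against 6.94% of all genes. The windows of head to head neighbours overlap, so that 1 motif may count for both. A match of letters is a description and not a site of binding.

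The treatment was then compared. By edgeR's quasi-likelihood test no member had a Benjamini-Hochberg adjusted p under 0.01, the threshold used, or under 0.05. The background over the 16630 genes tested was the same, with 0% called at either threshold. The smallest adjusted p of a member was 0.640, for HIST1H1C. At an unadjusted p under 0.05 there were 3 members of 35, or 8.57%, against 7.08% of all genes tested, a share near the background. Of these, 2 were higher in A2M tumours (background 3.55%) and 1 was lower (background 3.53%). In no member did the tumours of the groups separate without overlap, against 0.71% of all genes tested. DESeq2 and limma-voom likewise called no member and gave the same 3 members at an unadjusted p under 0.05. The number fell to 1 without A2M tumour PC3_tumor_131 (HIST1H1C) and rose to 6 without A2M tumour PC3_tumor_130. Each of the 3 members lay above 0.05 when some single tumour was left out (edgeR). For HIST1H1C this was PC3_tumor_125 (unadjusted p = 0.0505). For HIST2H2BE it was PC3_tumor_123, PC3_tumor_124, PC3_tumor_128 or PC3_tumor_131 (unadjusted p 0.0501 to 0.0649). For HIST1H2AG it was PC3_tumor_123 or PC3_tumor_131 (unadjusted p 0.0538 and 0.0586). Bulk RNA cannot tell fewer cells of a type from less RNA per cell, which holds for all values that follow.

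HIST1H1C encodes H1.2, a linker histone. The values in the PBS tumours PC3_tumor_123 to PC3_tumor_127 were 46.6, 39.9, 50.9, 42.9 and 38.5 CPM. In the A2M tumours the lowest was 27.4, the median 36.8 and the highest 40.5 CPM. Of the A2M tumours 4 of 6 lay below every PBS tumour, but PC3_tumor_128 and PC3_tumor_130 exceeded the lowest PBS tumour. The log2 fold change of A2M over PBS was -0.28 with a standard error of 0.10 (edgeR, unadjusted p = 0.0146, adjusted p = 0.640). The other linker histone genes were low, with 9 to 39 counts for HIST1H1D and 5 to 17 counts for HIST1H1E, and neither was under an unadjusted p of 0.05.

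HIST2H2BE encodes an H2B protein and has the longest exon model of all members. PBS tumours had 27.7, 31.6, 39.7, 34.7 and 38.2 CPM. A2M tumours had 32.9 CPM at the lowest, a median of 43.8 and 58.0 at the highest. The A2M tumours PC3_tumor_128, PC3_tumor_129, PC3_tumor_131 and PC3_tumor_132 lay above every PBS tumour, whereas PC3_tumor_130 and PC3_tumor_112 lay within their range. The log2 fold change was 0.36 with a standard error of 0.14 (edgeR, unadjusted p = 0.0228, adjusted p = 0.647). HIST2H2BF, the other H2B gene of HIST2 with a long model, had 2.19 to 3.64 CPM in PBS and 2.78 to 4.91 CPM in A2M tumours, with a log2 fold change of 0.32 and a standard error of 0.17 (edgeR, adjusted p = 0.762). In GENCODE an exon of FCGR1A overlaps the HIST2H2BF gene. Overlaps in the authors' models, which the counts follow, were not checked, so the counts of HIST2H2BF are uncertain. Exons of other GENCODE genes also overlap HIST1H2AC, HIST1H2BE, HIST1H3D and HIST1H4H among the named members. The strand setting of the counting is not given in the sources used here.

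HIST1H2AG is an H2A gene of the HIST1 cluster with few reads, 9 to 36 counts per tumour. The PBS tumours had 0.298, 0.483, 0.392, 0.611 and 0.426 CPM, and the A2M tumours 0.417 at the lowest, 0.702 in the median and 1.30 at the highest. Again the A2M tumours PC3_tumor_128, PC3_tumor_129, PC3_tumor_131 and PC3_tumor_132 were above all PBS tumours. The log2 fold change was 0.75 with a standard error of 0.29 (edgeR, unadjusted p = 0.0207, adjusted p = 0.643). Its neighbour HIST1H2BJ differed by 0.056 on the log2 scale with a standard error of 0.17.

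HIST1H2BK, the main member, had 124.5, 109, 120.1, 102 and 116 CPM in the PBS tumours and 106, 115 and 136 CPM as lowest, median and highest in the A2M tumours. The log2 fold change was 0.050 with a standard error of 0.075, and the groups overlapped almost fully. HIST1H2AC had 35.5, 33.5, 40.2, 35.1 and 45.4 CPM in PBS tumours and 31.4 to 56.1 CPM with a median of 43.3 in A2M tumours (log2 fold change 0.15, standard error 0.14). The A2M tumours thus reached both the lowest and the highest values of this H2A gene. For HIST1H2BD the log2 fold change was 0.23 with a standard error of 0.14, and for HIST1H4H 0.19 with a standard error of 0.13. The members with the smallest p among those lower in A2M tumours, after HIST1H1C, were HIST1H2AE (log2 fold change -0.19, standard error 0.16) and HIST1H2BE (-0.11, standard error 0.12).

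**Figure D3:**
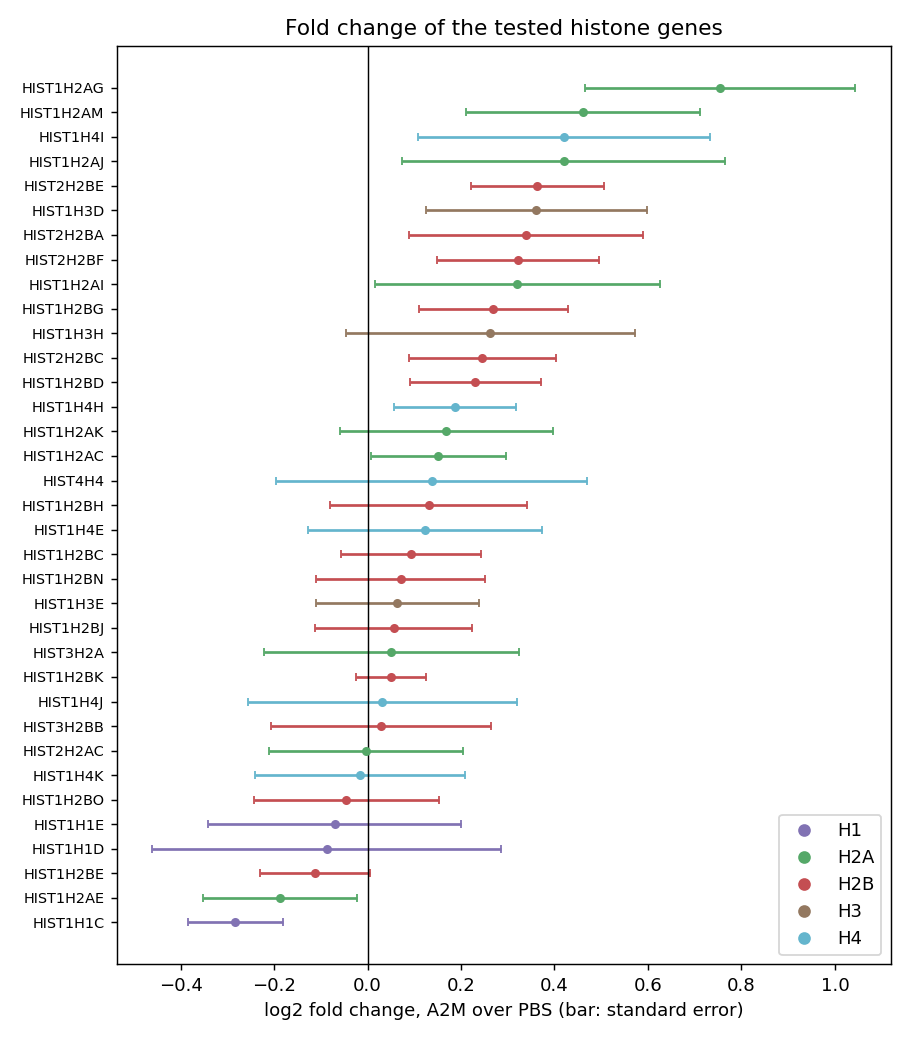
log2 fold change of A2M over PBS (x axis) for the 35 tested histone genes, sorted by size and coloured by class, with bars of 1 standard error. The value is above 0 for 27 genes, and the 3 H1 genes lie below 0, of which HIST1H1D turned above 0 with limma-voom and with limma on RPKM.

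The fold change was above 0 in 27 of the 35 tested members, or 77.1%, against 49.4% of all genes tested, and its median was 0.13 against -0.0021 over all genes on the log2 scale. By class the median was -0.088 in H1 (3 of 3 below 0, with HIST1H1D above 0 by limma-voom and by limma on RPKM), 0.17 in H2A (7 of 9 above 0) and 0.11 in H2B (12 of 14 above 0). It was 0.26 in H3 (3 of 3 above 0) and 0.13 in H4 (5 of 6 above 0, with HIST1H4K also above 0 when scaled by library size only). The tested H2B members include the pseudogenes HIST2H2BA and HIST2H2BC, with log2 fold changes of 0.34 and 0.25. The median over the members depended on single tumours: it was 0.043 without PC3_tumor_128, 0.064 without PC3_tumor_131 and 0.22 without PC3_tumor_130. These medians describe genes that share tumours and so are not independent. The values of the remaining H3 genes among those named were 0.064 (standard error 0.17) for HIST1H3E, 0.26 (0.31) for HIST1H3H and 0.36 (0.24) for HIST1H3D, and of the H4 genes 0.12 (0.25) for HIST1H4E and -0.016 (0.23) for HIST1H4K. HIST3H2A, the HIST3 gene with the highest level, differed by 0.051 (0.27).

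The summed CPM of each class was also compared between the means of the groups, without a test. H1 genes together had 45.1 ± 5.22 CPM in PBS tumours (SD, n = 5) and 37.1 ± 4.60 CPM in A2M tumours (SD, n = 6). H2A genes had 48.1 ± 5.70 and 53.2 ± 11.96 CPM, and H2B genes 187 ± 11.5 and 205 ± 26.3 CPM. H3 genes had 6.40 ± 0.742 and 7.55 ± 1.93 CPM, and H4 genes 9.39 ± 0.738 and 10.4 ± 2.15 CPM. All 73 members summed to 296 ± 20.7 CPM in PBS and 313 ± 43.1 CPM in A2M tumours. For the core classes the difference of the means was smaller than the SD of the A2M group, and this SD was larger than that of the PBS group in each core class, which was not tested. The sum of H1 is nearly that of HIST1H1C alone, and without this gene its log2 difference moved from -0.28 to -0.16. Without HIST1H2BK that of H2B moved from 0.13 to 0.26. The sums of the core classes leaned on single tumours. Without PC3_tumor_128 the log2 difference fell from 0.14 to 0.053 in H2A, from 0.13 to 0.076 in H2B, from 0.24 to 0.15 in H3 and from 0.083 to 0.022 over all members. Without PC3_tumor_131 it fell to 0.070 in H4, from 0.15, and to 0.052 over all members, and without PBS tumour PC3_tumor_124 to 0.055 over all members. Without PC3_tumor_130 it rose to 0.22 in H2A and 0.23 in H4. On the deposited RPM the difference over all members was 0.13.

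**Figure D4:**
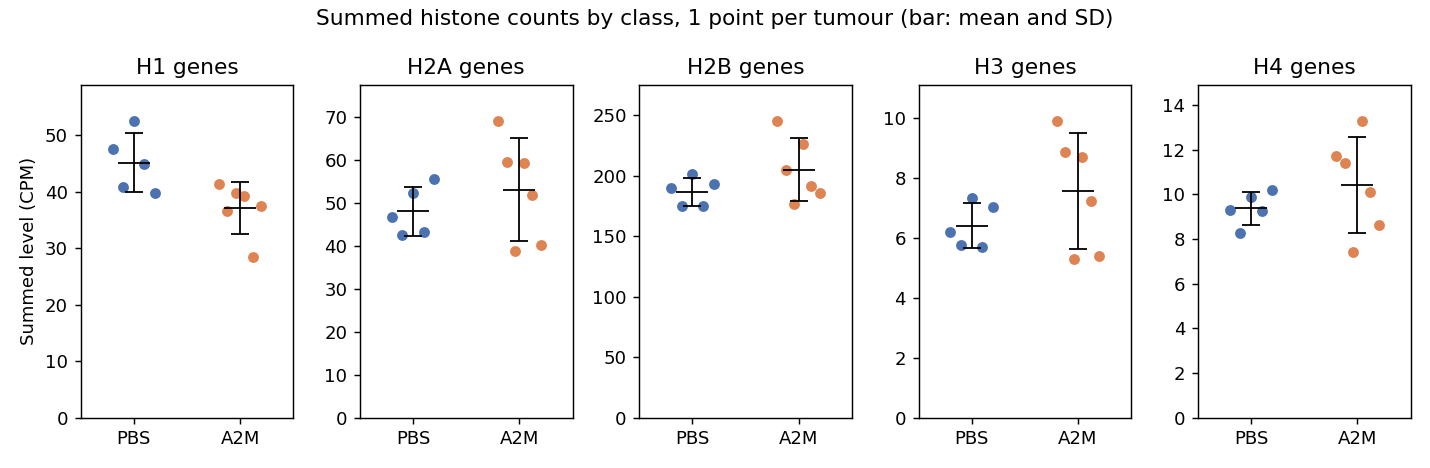
Summed CPM of all genes of a histone class (y axis, starting at 0, with a scale of its own per class) in each tumour, with the mean and SD of 5 PBS and 6 A2M tumours in black. The A2M tumours spread from below to above the PBS tumours in H2A, H3 and H4, and lie mostly below them in H1.

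The members differed together between single tumours. Of the 35 tested members 15 had their highest value in A2M tumour PC3_tumor_128 and 10 in A2M tumour PC3_tumor_131, together 25 of 35, while 21.0% of all genes tested had their highest value in either of these tumours (6.60% and 14.4%). The median deviation of the members from their own mean, on the scale of log2(CPM + 0.1), was 0.36 in PC3_tumor_128, 0.31 in PC3_tumor_131 and 0.21 in PC3_tumor_129. It was -0.28 in A2M tumour PC3_tumor_130, -0.18 in PBS tumour PC3_tumor_124 and -0.11 in A2M tumour PC3_tumor_112. The median over all genes was between -0.00055 and 0.011 in every tumour. A2M tumours therefore held both the highest and the lowest median of the histone genes, as the map of deviations shows. Between tumours of the same group the members also varied more than most genes: the biological coefficient of variation of edgeR had a median of 18.1% over the members against 12.4% over all genes tested, and was above that median in 32 of 35 members, many of which have low counts. Of the 5 members with the most counts, HIST1H2AC (17.0%), HIST2H2BE (16.7%) and HIST1H2BD (16.4%) lay above the median of all genes, and HIST1H2BK (9.47%) and HIST1H1C (12.3%) below it. HIST1H2BE, at 11.3%, was the only other member below it.

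**Figure D5:**
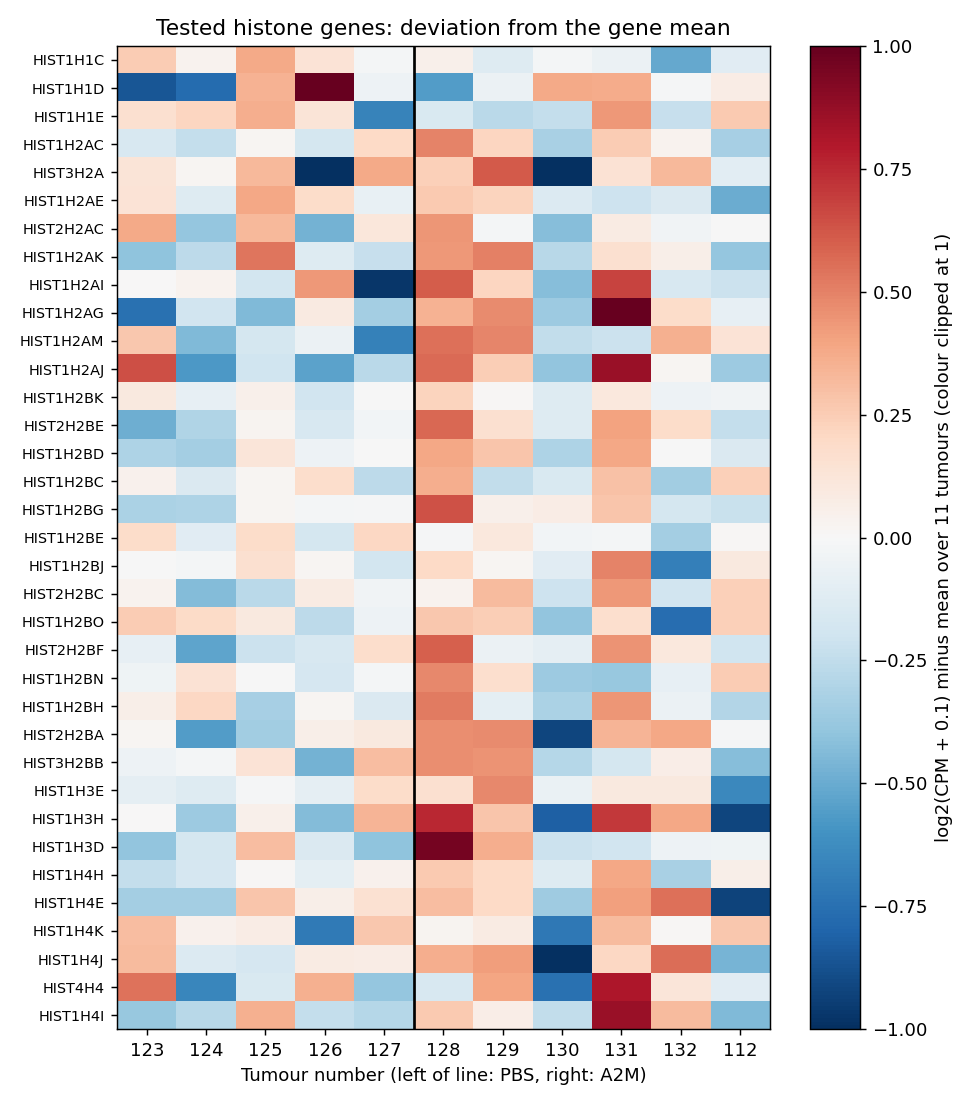
Deviation of log2(CPM + 0.1) of each tested histone gene (rows, by class) from its mean over the 11 tumours (columns, PBS left and A2M right of the line), red above and blue below the mean. The columns of PC3_tumor_128 and PC3_tumor_131 are mostly red, and that of PC3_tumor_130 is mostly blue.

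Genes that act on the same pathway were examined for comparison, from lists chosen by function. None of their members passed the adjusted threshold. Of the 16 S phase genes (such as PCNA, the MCM helicase genes and RRM2) none was higher and 1 was lower at an unadjusted p under 0.05, where 3.55% and 3.53% of all genes tested were, so that a single gene is near the background. The median over the list was -0.064. The gene was MCM7, a subunit of the replicative helicase, which differed by -0.12 on the log2 scale (standard error 0.056, edgeR unadjusted p = 0.0484, adjusted p = 0.700). By tumour these genes followed the histone genes only in part. Their highest value lay in PBS tumour PC3_tumor_123 for 8 of 16, in PC3_tumor_131 for 4 and in PC3_tumor_112 for 3. Of all genes tested, 6.999%, 14.4% and 8.59% were highest in these tumours. None of the 16 was highest in PC3_tumor_128, which is near the 6.60% of all genes tested. Their median deviation there was -0.14, against 0.36 for the histone genes. In PC3_tumor_131 both were high, with 0.185 for the S phase genes and 0.314 for the histone genes. The lowest value of 11 of the 16 was found in A2M tumour PC3_tumor_132, against 16.9% of all genes tested, with a median deviation of -0.31.

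Of the 14 genes for the processing and decay of histone mRNA 1 was higher and none was lower at an unadjusted p under 0.05, again near the 3.55% and 3.53% of all genes tested, with a median of 0.073. The gene was NCBP1, which encodes the large subunit of the nuclear cap-binding complex (log2 fold change 0.18, standard error 0.073, edgeR unadjusted p = 0.0279, adjusted p = 0.649). SLBP itself had 41.6 ± 3.07 CPM in PBS (SD, n = 5) and 39.2 ± 2.80 CPM in A2M tumours (SD, n = 6), a log2 difference of -0.086 with a standard error of 0.072. The 7 genes for histone gene transcription had a median of -0.060 and no gene at an unadjusted p under 0.05. NPAT, the coactivator of these genes in S phase, differed by -0.015 (standard error 0.12) and POU2F1 by -0.18 (0.12).

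The 20 histone chaperone genes had a median of -0.018 and no gene at an unadjusted p under 0.05, with HJURP at 0.16 (0.17) and CABIN1 at -0.16 (0.085). Of the 12 genes listed as replication-independent histone variants 11 were tested, with a median of -0.065 and none at an unadjusted p under 0.05. H2AFX differed by 0.24 (0.17) and H1F0, the linker histone of resting cells, by -0.084 (0.070). H1F0 had a mean of 186 RPKM and H3F3B 327 RPKM, both above HIST1H2BK at 139 RPKM, the highest replication-dependent gene. The kit picks RNA by its poly(A) tail, which replication-dependent histone mRNAs usually lack. This order is therefore one of captured RNA and may not be that of the RNA in the cells.

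The libraries were checked against the label of a prostate carcinoma line. The epithelial genes KRT8, KRT18, KRT19, EPCAM and CDH1 lay between 61.4 and 516 RPKM in all tumours. Of the genes of secretory prostate cells, KLK3 was at 0, KLK2 at or below 0.0102 and TMPRSS2 between 10.2 and 24.4 RPKM. Of 7 genes of host cells, PTPRC reached at most 0.357 and VWF at most 0.125 RPKM, whereas COL1A1 lay at 49.7 to 148, COL3A1 at 1.23 to 8.24, COL1A2 at 0.211 to 0.978, CD68 at 10.5 to 15.3 and PECAM1 at 3.15 to 5.03 RPKM. The summed level of the list was 71.7 to 131.7 RPKM in PBS and 70.6 to 175 RPKM in A2M tumours. The part of mouse reads left among the human reads in the histone values was not tested. Counts differed between any pair of libraries beyond sampling noise (chi-square per degree of freedom 8.31 to 59.1 over 55 pairs), so no library was a copy of another. Each was counted as a sample of its own, but this check cannot show that the tumours are independent.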

How the data were processed

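RNA of 11 PC-3 xenograft tumours (5 PBS, 6 A2M) was measured with an Illumina TruSeq RNA kit v2. The authors sorted the single reads by species with xenome, mapped the human reads to hg19 with TopHat2 and counted them per RefSeq gene with featureCounts, after base calls with bcl2fastq 1.8.4. The strand setting, the handling of reads that fit several genes and the versions of the other tools are not given in the sources used here; the kit keeps no strand, so genes that overlap on opposite strands cannot be told apart. The deposited counts are not normalized. The deposited RPM values are counts per 1e+06 counts of the tumour, and in the deposited RPKM these are further divided by the summed exon length of a gene.

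Counts of all 25590 genes were filtered with filterByExpr (16630 kept), normalized with TMM and tested with edgeR 4.0.16 (glmQLFit and glmQLFTest, R 4.3.3) over all 11 tumours without covariates, since the labels give no batch. The threshold was 0.01 on the Benjamini-Hochberg adjusted p over all genes tested. Standard errors were the fold change divided by the square root of F. The steps were tested on simulated data. Alternatives were scaling by RLE or by library size alone, a filter of 10 counts per tumour or none, DESeq2 1.42.0, limma-voom and limma 3.58.1 on log2(RPKM + 0.1), and the omission of single tumours. The standard errors and SDs include the spread between tumours, while the floor of 3 counts covers counting error only.

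The members and the lists were chosen with earlier results of these data known. Members named were the 3 with the highest mean RPKM in each class and the 3 with the smallest p in each direction; related lists gave the gene with the smallest p in each direction, and other genes were named after their values were seen. All 73 members matched a current RefSeq symbol and 67 had a position in the GENCODE annotation mapped to GRCh37. Plots were made in Python 3.11.15 using matplotlib 3.10.9. The values of 2 marker genes are not reported here.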

Additional observations from a re-analysis of the deposited data

Results flagged for a closer look

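Among 48 groups of values searched (the named members and the class sums in each treatment group), 4 had 1 tumour farther from the others than Dixon's test at 95% allows, and chance alone gives about 2.4. All 4 were A2M groups. HIST1H1C had 27.4 CPM in PC3_tumor_132, with 35.6 to 40.5 CPM in the other A2M tumours. The summed H1 genes, of which HIST1H1C is the main part, had 28.4 CPM in the same tumour, against 36.6 to 41.3 CPM. HIST1H2BE had 2.58 CPM in PC3_tumor_132, against 3.22 to 3.54 CPM. HIST1H4K had 0.569 CPM in PC3_tumor_130, against 1.01 to 1.26 CPM in the others, a value close to the 0.573 CPM of PBS tumour PC3_tumor_126.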

How the results depend on the processing

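No paired analysis was possible because the groups share no tumour numbers. No member passed the adjusted threshold under any alternative run. Of 321 fold changes of the 18 named members under alternatives 307 kept their direction, and the 14 that reversed belong to 5 genes with values near 0; the cause was not tested. HIST1H4K became 0.028 with library size only and 0.042 with limma on RPKM, and HIST1H1D became 0.114 with limma-voom and 0.113 with limma on RPKM. With 1 tumour left out, the log2 fold change ranged from -0.16 to 0.11 for HIST1H4K, -0.26 to 0.040 for HIST1H1E, -0.28 to 0.34 for HIST1H1D, -0.13 to 0.21 for HIST3H2A and -0.028 to 0.19 for HIST1H3E. The number of members at an unadjusted p under 0.05 was 2 to 4 under the other settings and 1 (without A2M tumour PC3_tumor_131) to 6 (without A2M tumour PC3_tumor_130) with 1 tumour left out. The median log2 fold change stayed above 0, between 0.10 and 0.18 under other settings and 0.043 (without PC3_tumor_128) and 0.22 (without PC3_tumor_130) with 1 tumour left out. The 5 highest members held 72.3% by RPKM instead of 82.0% by CPM. At least 1 count in every tumour was reached by 47 members and at least 10 by 27. HIST1H1D, HIST1H1E and HIST1H2AG could not be tested with the filter of 10 counts. Depth limits the members with few counts, and poly(A) selection limits all levels.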

Other observations

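HIST2H2BE and HIST1H1C had an unadjusted p under 0.05 (edgeR) in opposite directions, so a ratio between them was bound to differ between the groups. The ratio of the CPM of HIST2H2BE to that of HIST1H1C was chosen after the values were seen and is given without a test. It was 0.593, 0.792, 0.780, 0.810 and 0.992 in the PBS tumours PC3_tumor_123 to PC3_tumor_127. In the A2M tumours it was 1.43 in PC3_tumor_128, 1.22 in PC3_tumor_129, 0.924 in PC3_tumor_130, 1.37 in PC3_tumor_131, 1.61 in PC3_tumor_132 and 0.912 in PC3_tumor_112. HIST2H2BE thus exceeded HIST1H1C in 4 of 6 A2M tumours and in none of the 5 PBS tumours, while PC3_tumor_130 and PC3_tumor_112 lay within the range of the PBS tumours.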
